A study of Rattus norvegicus with 24 samples.

Results

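Microglia are the resident macrophages of the brain, and several of the genes that define them lie on rat chromosome 1, as do genes for proteins of the brain's lipid transport. A set of 10 of these microglial and lipoprotein symbols was chosen by name: Tyrobp, Hcst, Itgam, Coro1a, Cd22, Tgfb1, Axl, Apoe, Apoc1 and Lsr. Symbols were tied to Ensembl identifiers through the study's own annotation of chromosome 1. Of the 10, 8 were found in the deposited table of 32883 genes, and Hcst and Cd22 were skipped because that annotation as used here held no identifier for them. All 8 passed the filter on low counts, which kept 13838 genes. No measured value entered the choice of members, but it was made with earlier results of these data known.

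The data were RNA-seq counts from whole hippocampus of F0 rats of 2 selectively bred lines, the high responders (bHR) and the low responders (bLR), which differ in how much they move about in a new environment. The rats had been through behavioral tests, and the labels give no drug, transgene or deletion. There were 12 bHRs and 12 bLRs, with 6 males and 6 females in each line. A bHR female with a RIN (RNA integrity number) of 6.3 was left out, which left 23 rats. By the labels the males were 151 to 165 days old and the females 187 to 192 days old. Since the sexes were also dissected on separate days, sex, age and day cannot be told apart. The labels put 1 male and 1 female in each family, whereas the study's protocol text speaks of separate families for all rats and of younger ages, so family and age rest on the labels alone. Levels are given as CPM, counts scaled to a common library size by TMM.

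Total counts per rat ran from 16824899 to 28443049, so that 3 counts stood for 0.105 to 0.178 CPM before scaling. The share of reads on ribosomal RNA (%rRNA) ranged from 1.23% to 3.98% over the 23 rats, and the share outside genes (%intergenic) from 8.74% to 13.5%. The median %intergenic was 9.44% in the bHRs and 10.8% in the bLRs, and the median %rRNA was 2.26% and 2.35%. The TMM factor, which rescales each library by the bulk of its genes, ran from 0.689 to 1.35. Neuronal Rbfox3 and Slc17a7 and astrocytic Gfap, Aqp4 and Slc1a3 were present in every rat, as the label of hippocampus requires. Only 5 of the 29 listed microglial markers had an identifier here, among them Olfml3, Cd37, Cd33 and Blnk, so the content of microglia could not be judged from the full list. Fewer microglia and less RNA per cell cannot be told apart in whole tissue.

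As background, TYROBP (DAP12) is the adaptor that carries the signal of TREM2 and other surface receptors into microglia, ITGAM (CD11b) is the integrin chain by which microglia are often stained, and CORO1A is an actin-binding protein of leukocytes. AXL is a receptor tyrosine kinase that takes part in the clearance of dying cells, and TGFB1 is the cytokine that keeps microglia in their resting state. APOE, made in the brain mostly by astrocytes and by activated microglia, and APOC1 are carried on lipoprotein particles. LSR is a receptor that takes up lipoproteins and also seals the corners where 3 cells meet in an epithelium or endothelium.

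In the Ensembl annotation on Rnor6, Apoc1 (ENSRNOG00000018426) lay at chr1:80606638-80609921 and Apoe (ENSRNOG00000018454) at chr1:80612895-80617057, both on the minus strand. Tgfb1 (ENSRNOG00000020652) lay at chr1:82480195-82497199 on the plus strand and Axl (ENSRNOG00000020716) at chr1:82549420-82580761 on the minus strand. Tyrobp (ENSRNOG00000020845) was at chr1:88875375-88879303 on the plus strand, and Lsr (ENSRNOG00000021053) at chr1:89383519-89399041 on the minus strand. Coro1a (ENSRNOG00000019430) was at chr1:198123884-198128857 on the minus strand, and Itgam (ENSRNOG00000019728) at chr1:199495298-199623960 on the plus strand. An older symbol listed for that last identifier in the same annotation is Itgad, another integrin gene. The Itgam model spans 128663 bases, whereas RefSeq on GRCr8 gives Itgam 50452 bases and reaches a length of 129369 bases only from the start of Itgam to the end of Itgad, with 1 protein-coding gene between them. The row called Itgam may therefore hold reads of neighboring integrin genes, and its values cannot be read as those of CD11b alone.

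The promoters of 4 members are shown because their levels moved together or against each other between rats, as described further on. Each is the stretch of 250 bases before a RefSeq start on GRCr8, read 5′ to 3′ on the gene's strand, with matches to GAGGAA (the core of sites for PU.1, a myeloid factor) and GGGCGG (the GC box of Sp1-type factors) on either strand in capitals. The windows are chr1:192089342-192089591 on the plus strand for Itgam, chr1:90424010-90424259 on the minus strand for Axl, chr1:90324062-90324311 on the plus strand for Tgfb1 and chr1:88478306-88478555 on the minus strand for the first of the starts of Apoc1.
Itgam: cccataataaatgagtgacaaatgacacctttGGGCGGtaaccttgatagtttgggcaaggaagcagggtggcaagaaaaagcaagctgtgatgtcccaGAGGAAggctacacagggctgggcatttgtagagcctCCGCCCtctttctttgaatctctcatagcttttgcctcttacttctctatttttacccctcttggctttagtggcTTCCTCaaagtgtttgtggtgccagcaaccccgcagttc
Axl: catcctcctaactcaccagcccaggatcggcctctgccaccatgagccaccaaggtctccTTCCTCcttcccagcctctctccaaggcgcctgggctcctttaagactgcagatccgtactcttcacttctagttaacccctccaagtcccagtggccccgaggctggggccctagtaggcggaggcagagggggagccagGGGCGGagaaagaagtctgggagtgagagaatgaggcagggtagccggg
Tgfb1: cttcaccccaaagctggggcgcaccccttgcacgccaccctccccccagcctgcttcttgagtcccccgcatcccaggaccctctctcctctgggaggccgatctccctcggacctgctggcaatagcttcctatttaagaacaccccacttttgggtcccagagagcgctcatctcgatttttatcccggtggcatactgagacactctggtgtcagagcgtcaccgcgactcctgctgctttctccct
Apoc1: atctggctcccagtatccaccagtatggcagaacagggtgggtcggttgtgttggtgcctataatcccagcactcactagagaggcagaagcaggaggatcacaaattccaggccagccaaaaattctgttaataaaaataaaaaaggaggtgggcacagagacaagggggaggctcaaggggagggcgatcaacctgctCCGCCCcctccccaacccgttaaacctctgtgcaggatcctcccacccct
Itgam held 2 matches to GAGGAA and 2 to GGGCGG, Axl 1 of each, Apoc1 1 match to GGGCGG and Tgfb1 none, and no matches overlapped. Of all 33469 RefSeq promoter windows of this length, 23.3% held GAGGAA and 30.5% held GGGCGG on either strand, so such matches are common. RefSeq promoters were found for 7 of the 8 members, and Tyrobp was the exception.

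None of the 8 genes differed between the lines at the threshold used, in either direction. Itgam had the largest bLR to bHR ratio of the 8, and Tyrobp, Coro1a, Axl, Apoc1 and Lsr had small positive Log2FCs, Apoe and Tgfb1 small negative ones. In the fit of lineage, sex, %rRNA and %intergenic, 0 of the 8 members passed an FDR under 0.10 (edgeR quasi-likelihood test), against 185 of 13838 genes or 1.34%. limma-voom and DESeq2 also called 0 of the 8. At an unadjusted p under 0.05, 1 of the 8 passed by each of the 3 tools, beside 9.96% of all genes by edgeR. The median Log2FC (bLR vs. bHR) was 0.14 over the 8 members and -0.0035 over all genes tested.

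**Figure D1:**
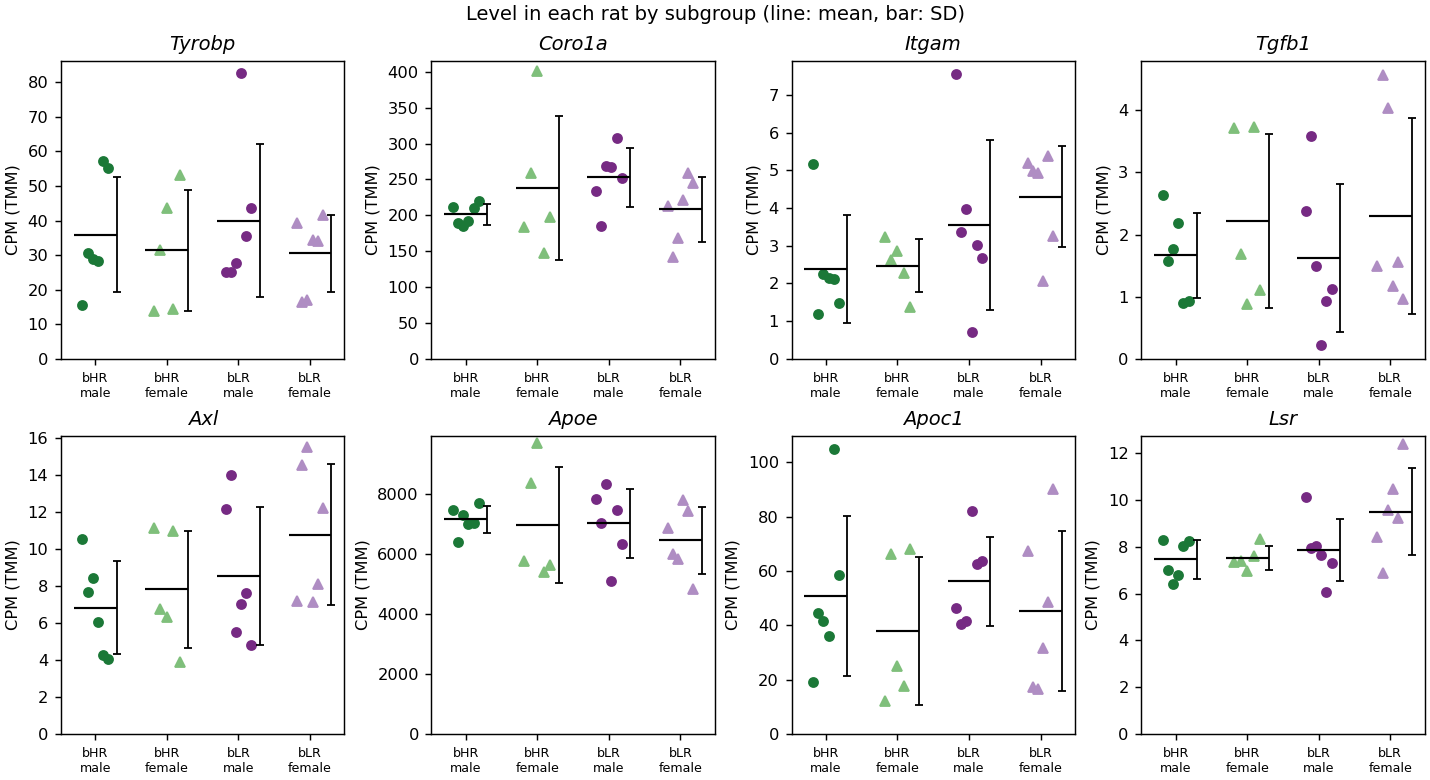
Level of each member (CPM after TMM scaling, axis from 0) in every one of the 23 rats by subgroup of line and sex, with circles for males, triangles for females, a line at the mean and a bar for 1 SD on each side. The ranges of the bHRs and bLRs overlap in all 8 panels, and 1 bLR male lies at 82.7 CPM for Tyrobp and at 0.216 CPM for Tgfb1.

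Tyrobp ran from 13.9 to 57.4 CPM in the 11 bHRs (median 30.6) and from 16.5 to 82.7 CPM in the 12 bLRs (median 34.3). The lines overlapped over nearly their whole range, and the spread between rats within each line was several-fold. The Log2FC was 0.15 (SE 0.14, FDR = 0.793), with a 95% interval of -0.14 to 0.44. It was -0.065 with %rRNA as the only technical covariate, so the sign depends on that choice.

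Itgam was a gene of low level, at 1.18 to 5.18 CPM in bHRs (median 2.24) and 0.722 to 7.56 CPM in bLRs (median 3.66), from 10 to 166 counts per rat. The median bLR rat lay above the median bHR rat, yet the lowest rat of all was also a bLR. The Log2FC was 0.47 (SE 0.22, unadjusted p = 0.043, FDR = 0.479). With 1 rat left out it ran from 0.39 to 0.60 and was never called. The unadjusted edgeR p in those fits was as low as 0.0053, but 0.063 without bLR female 1 and 0.079 without bHR male 1. With %rRNA as the only technical covariate the Log2FC was 0.72 (FDR = 0.208), and the %intergenic that this leaves out was itself higher in the median bLR rat. Without either metric it was 0.68, and with 2 surrogate variables added 0.71 (FDR = 0.134). It was 0.75 in males alone and 0.80 in females alone, each with %rRNA fitted and not called.

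Coro1a ran from 147 to 402 CPM in bHRs (median 198) and from 142 to 308 CPM in bLRs (median 240). Levels are compared only within a gene, because no transcript lengths of this annotation were used here. The highest rat was a bHR female and the lowest a bLR female, and between those ends the lines overlapped. The Log2FC was 0.10 (SE 0.11, FDR = 0.837).

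Among the signaling genes, Axl ran from 3.86 to 11.1 CPM in bHRs (median 6.73) and from 4.80 to 15.5 CPM in bLRs (median 7.85), with a Log2FC of 0.21 (SE 0.17, FDR = 0.738). The 5 highest values were of bLRs, and the lowest values of the lines were close. With %rRNA as the only technical covariate its Log2FC was 0.46 (FDR = 0.269). Tgfb1 had few counts, from 0.886 to 3.72 CPM in bHRs (median 1.68) and from 0.216 to 4.57 CPM in bLRs (median 1.49). Its lowest rat had 3 counts and its highest 152, and both were bLRs. The Log2FC was -0.10 (SE 0.21, FDR = 0.920), with an interval of -0.54 to 0.33, and the sign changed with the covariates (0.12 with %rRNA as the only metric).

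Apoe had 70741 to 223343 counts per rat, from 5388 to 9672 CPM in bHRs (median 7014) and from 4824 to 8328 CPM in bLRs (median 6943). Its highest rat had 2.00 times the level of its lowest, less than any other member. The Log2FC was -0.027 (SE 0.12, FDR = 0.967), with a 95% interval of -0.27 to 0.21. Apoc1, the next gene along the chromosome, ran from 12.2 to 105 CPM in bHRs (median 41.5) and from 16.7 to 90.0 CPM in bLRs (median 47.5), with a Log2FC of 0.21 (SE 0.25, FDR = 0.839). These neighbors thus differed in spread, 2.00-fold for Apoe against 8.61-fold for Apoc1 between the highest and lowest rat. Lsr ran from 6.40 to 8.32 CPM in bHRs (median 7.39) and from 6.05 to 12.4 CPM in bLRs (median 8.22). The bHRs were the tighter group, and 6 bLRs, 5 of them female, lay above the highest bHR. The bHR female left out for its RIN lay above all of them, at 13.9 CPM, and with all 24 rats the Log2FC of Lsr was 0.073 in place of 0.13. The Log2FC was 0.13 (SE 0.10, FDR = 0.738).

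**Figure D2:**
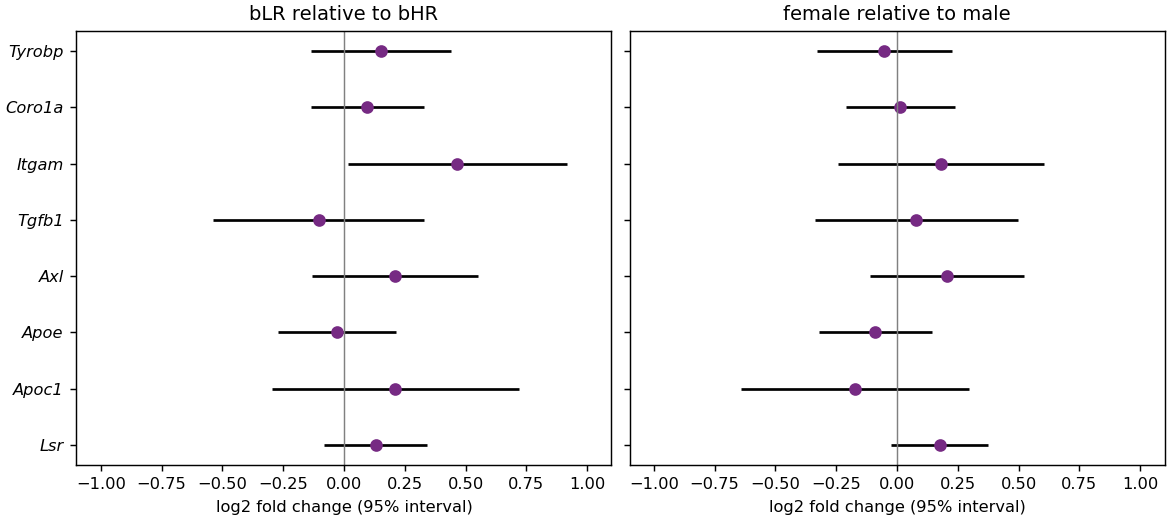
Log2 fold change of each member between the lines (left, bLR relative to bHR) and between the sexes (right, female relative to male) with its 95% interval, from the fit of lineage, sex, %rRNA and %intergenic over 23 rats. Every interval includes 0 except that of Itgam for lineage, which runs from 0.016 to 0.92 and did not pass the FDR.

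None of the members differed between the sexes at the threshold either. For sex 0 of the 8 members passed an FDR under 0.10 against 49 of 13838 genes (0.354%), and limma-voom and DESeq2 called 0 of the 8. At an unadjusted p under 0.05 the count was 0 of 8 by edgeR, 0 by limma-voom and 1 by DESeq2, beside 11.2% of all genes by edgeR. Lsr had the smallest p of the 8, at 7.66 ± 1.07 CPM in the 12 males and 8.60 ± 1.71 CPM in the 11 females (mean ± SD). Its Log2FC (female vs. male) was 0.17 (SE 0.10, FDR = 0.504), and 0.11 without bLR female 6. Axl was at 7.67 ± 3.16 CPM in males and 9.43 ± 3.69 CPM in females, a Log2FC of 0.20 (SE 0.15, FDR = 0.614), which was 0.35 without bLR male 2 and 0.12 without bLR female 6.

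The lineage difference was not shown to depend on sex. The interaction of lineage and sex passed the threshold in 0 of 13838 genes (0%) by edgeR, with 2.35% of all genes and 0 of the 8 members at an unadjusted p under 0.05. Coro1a came closest, with bLR males at 253 ± 41.1 CPM above bHR males at 201 ± 14.5 CPM, and bLR females at 208 ± 45.3 CPM below bHR females at 238 ± 100.1 CPM. Its interaction was -0.44 on the log2 scale (SE 0.22), with a 95% interval of -0.90 to 0.014. The mean of the bHR females rests in part on 1 rat at 402 CPM.

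The other genes of these pathways that had an identifier held no called lineage difference. The list around TYROBP signaling had 0 of 14 genes with an identifier and could not be described. Of the TAM receptor list, 2 of 6 genes were tested and 0 were called. Mfge8, which bridges dying cells to phagocytes, had a Log2FC of -0.39 (SE 0.14, FDR = 0.264). Of the TGF-beta list, 3 of 22 were tested and 0 called, with Ltbp3, a latent TGF-beta binding protein, at 0.18 (SE 0.14) and Tgfb1 as above. Of the lipoprotein list, 6 of 27 were tested and 0 called. Apoc4, which lies in the same cluster as Apoe and Apoc1, was at 0.53 (SE 0.22, FDR = 0.395). Of the junction list, 3 of 6 were tested and 0 called, with a median Log2FC of 0.094. Of the microglial markers 5 of 29 were tested and 0 called, with Blnk, an adaptor of immune receptors, at 0.28 (SE 0.14, FDR = 0.536). Lyve1, the 1 tested gene of 8 on the list for border macrophages, was at 0.47 (SE 0.21, FDR = 0.432), from 0.432 to 1.98 CPM over all rats. The lists for blood leukocytes and endothelium had no gene with an identifier.

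Neighbors on the chromosome were also examined. The 3 tested genes on either side of each member made 38 distinct genes that were not members. Of these 1 was called, Relb, an NF-kB subunit near Apoc1, with a Log2FC of 0.47 (SE 0.13, FDR = 0.0783). That is 1 of 38 beside the 1.34% of all genes, and the median Log2FC of the 38 was 0.0061.

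Between individual rats the members varied far more than between the lines, and they did so in opposing groups. Tyrobp and Apoc1 were high in the same rats, and in those rats Tgfb1 and Axl, and to a lesser degree Itgam, were low. Co-variation was measured on log2 CPM after subtracting the mean of each subgroup, so that it is not made by line or sex, with FDRs over every pair of a member with any other tested gene. Of the 28 pairs of members, 6 correlated positively (21.4%) and 8 negatively (28.6%) at an FDR under 0.10. Over all 110696 pairs of a member with a tested gene, 27.2% were positive and 26.5% negative, so the members were related to each other about as often as to genes at large.

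Tyrobp and Tgfb1 had the tightest relation, with r = -0.92 (rho = -0.92, two-sided permutation p = 1e-05 for each, the smallest that 100000 permutations can give, FDR = 0.000106, n = 23 rats). In the 12 males r was -0.89 and in the 11 females -0.96. Without the 2 rats farthest from the median of Tyrobp it was -0.90. The bLR male with 82.7 CPM of Tyrobp had 0.216 CPM of Tgfb1, and the bHR female with 13.9 CPM of Tyrobp had 3.72 CPM.

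Tyrobp and Apoc1 correlated at r = 0.85 (rho = 0.85, permutation p = 2e-05 for each, FDR = 0.000183), with 0.90 in males, 0.84 in females and 0.84 without the 2 farthest rats. Axl went against Tyrobp (r = -0.78, rho = -0.79, permutation p = 8e-05 and 6e-05, FDR = 0.000523) and with Tgfb1 (r = 0.70, rho = 0.70, permutation p = 0.00077 and 0.00073, FDR = 0.00309). Without the 2 rats farthest from the median these were -0.81 and 0.79. Apoc1 went against Tgfb1 (r = -0.72, rho = -0.77, permutation p = 0.0001 and 0.00022, FDR = 0.000618). These 5 relations had the same sign in each sex and in each line.

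The row called Itgam, whose identity is in doubt, did not follow Tyrobp. Their r was -0.64 (rho = -0.62, permutation p = 0.00153 and 0.0027, FDR = 0.00536), with -0.80 in males and -0.44 in females, and -0.50 without the 2 farthest rats. Itgam went with Tgfb1 instead (r = 0.67, rho = 0.54, permutation p = 0.00289 and 0.0131, FDR = 0.00893), with 0.46 without the 2 farthest rats. Coro1a went with Tyrobp (r = 0.58, rho = 0.55, permutation p = 0.00946 and 0.0168, FDR = 0.0232) and against Tgfb1 (r = -0.68, rho = -0.72, permutation p = 0.00063 and 0.00119, FDR = 0.00263), but with libraries scaled by their size alone these became -0.47 and 0.18, so the direction for Coro1a depends on the scaling.

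Apoe had no called relation with Tyrobp (r = 0.015, rho = 0.030, permutation p = 0.951 and 0.904) or with Apoc1 (r = -0.041, rho = -0.026, permutation p = 0.876 and 0.920), although Apoc1 is its neighbor on the chromosome. Apoe went with Coro1a (r = 0.55, rho = 0.55, permutation p = 0.0446 and 0.0306, FDR = 0.0855) and Itgam (r = 0.43, rho = 0.41, permutation p = 0.0397 and 0.0615, FDR = 0.0774), and neither held without the 2 farthest rats (r = 0.34 and 0.20). The r of Apoe with Coro1a was 0.93 in bHRs, 0.11 in bLRs, 0.051 in males and 0.70 in females. With Itgam it was 0.31 in bHRs, 0.52 in bLRs, 0.79 in males and 0.14 in females. These differences were not tested. The other called pairs were Axl with Apoc1 (r = -0.65, rho = -0.64, permutation p = 0.00182 and 0.00202, FDR = 0.00615), Itgam with Apoc1 (r = -0.42, rho = -0.50, permutation p = 0.0198 and 0.0185, FDR = 0.0431) and Coro1a with Axl (r = -0.49, rho = -0.46, permutation p = 0.0316 and 0.0361, FDR = 0.0637), of which the last was 0.21 with library size alone. Itgam with Apoc1 was not called without the 2 farthest rats (r = -0.44, FDR = 0.149). Lsr had no called relation with any other member.

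**Figure D3:**
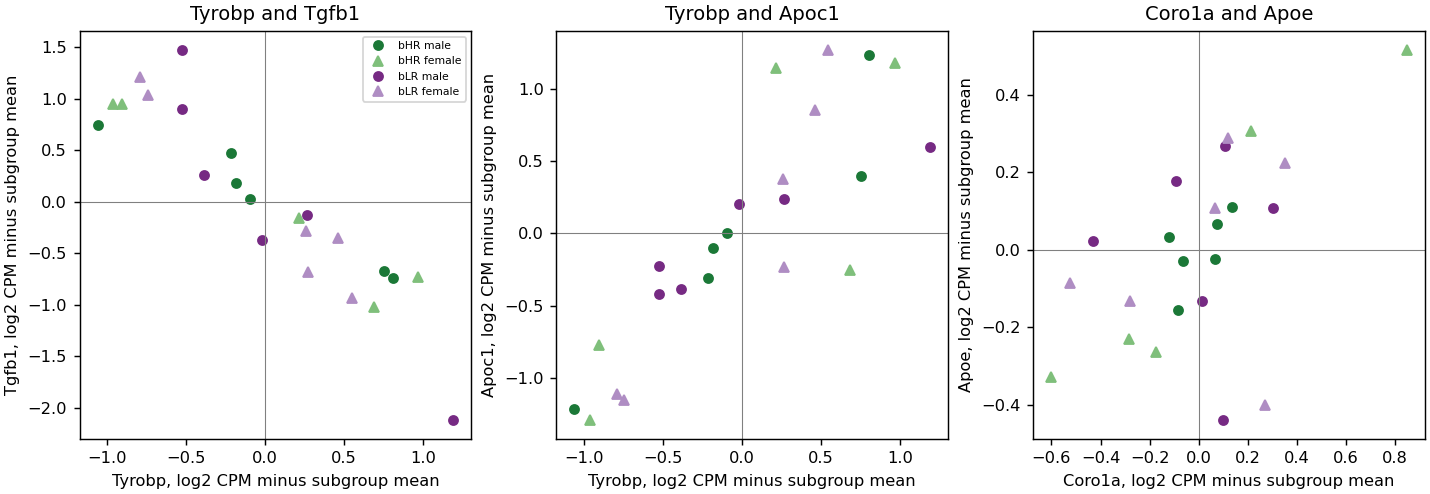
Deviation of each of 23 rats from the mean of its subgroup (log2 CPM) for Tgfb1 against Tyrobp, Apoc1 against Tyrobp and Apoe against Coro1a, with colors and symbols for the 4 subgroups. The first falls steadily (r = -0.92), the second rises (r = 0.85), and the third is looser (r = 0.55) and rests in part on the rats at its ends.

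These opposing groups ran along with the measures of the RNA itself. So did the TMM factor by which each level was scaled, at r = -0.84 with %rRNA and 0.39 with %intergenic over the 23 rats, given as a description. Over all 13838 genes, 32.9% correlated positively and 37.8% negatively with %rRNA, and 29.9% positively and 31.9% negatively with %intergenic, again within subgroups at an FDR under 0.10 over all genes and both metrics. Of the 8 members, 3 correlated positively with %rRNA, Tyrobp (r = 0.78, rho = 0.80, permutation p = 2e-05 and 3e-05, FDR = 0.000174), Coro1a (r = 0.69, rho = 0.65, permutation p = 0.00265 and 0.00495, FDR = 0.00702) and Apoc1 (r = 0.64, rho = 0.75, permutation p = 0.00213 and 0.00033, FDR = 0.0059). With libraries scaled by their size alone the r of Coro1a was -0.062. Tgfb1 (r = -0.79, rho = -0.79, permutation p = 3e-05 and 6e-05, FDR = 0.000232) and Itgam (r = -0.40, rho = -0.39, permutation p = 0.0637 and 0.0803, FDR = 0.0967) correlated negatively, and Itgam did not without the 2 rats of most extreme %rRNA (r = -0.12). Axl was not called (r = -0.41, rho = -0.54, permutation p = 0.0744 and 0.0120, FDR = 0.110), and without those 2 rats its r was -0.59 (permutation p = 0.0103). In the edgeR fit with line, sex and both metrics together these last calls were the other way round, with slopes per percentage point of %rRNA of -0.28 on the log2 scale for Axl (SE 0.10, FDR = 0.0149) and -0.24 for Itgam (SE 0.15, FDR = 0.143). For the called relations of the other 4 members with %rRNA, the r without those 2 rats was 0.76 for Tyrobp, 0.77 for Coro1a, 0.56 for Apoc1 and -0.72 for Tgfb1.

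Within the sexes, the r with %rRNA was 0.80 in males and 0.78 in females for Tyrobp, 0.61 and 0.66 for Apoc1, and -0.80 and -0.83 for Tgfb1. For Coro1a it was 0.28 in males and 0.84 in females, and for Itgam -0.74 and -0.071. For Apoe, which had no relation over all rats (r = -0.066, rho = 0.020, permutation p = 0.811 and 0.940), it was -0.84 in males and 0.27 in females, and 0.71 in the 11 bHRs and -0.66 in the 12 bLRs. None of these differences was tested.

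Axl correlated positively with %intergenic (r = 0.64, rho = 0.70, permutation p = 0.00055 and 0.00051, FDR = 0.00205), with 0.73 in males, 0.51 in females and 0.58 without the 2 rats of most extreme %intergenic. Itgam (r = 0.52, rho = 0.38, permutation p = 0.0290 and 0.0978, FDR = 0.0494) and Tgfb1 (r = 0.39, rho = 0.41, permutation p = 0.0580 and 0.0590, FDR = 0.0893) were positive and Tyrobp negative (r = -0.48, rho = -0.44, permutation p = 0.0241 and 0.0406, FDR = 0.0424). None of these 3 held without those 2 rats (r = 0.060, 0.28 and -0.26). Apoe was not called over all rats (r = -0.24, rho = -0.41, permutation p = 0.177 and 0.0428), and without those 2 rats its r was -0.64 (permutation p = 0.0032), farther from 0 than that of Axl. Those 2 were males, a bLR and a bHR, with 7.56 and 5.18 CPM of Itgam. Lsr was called for neither metric.

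**Figure D4:**
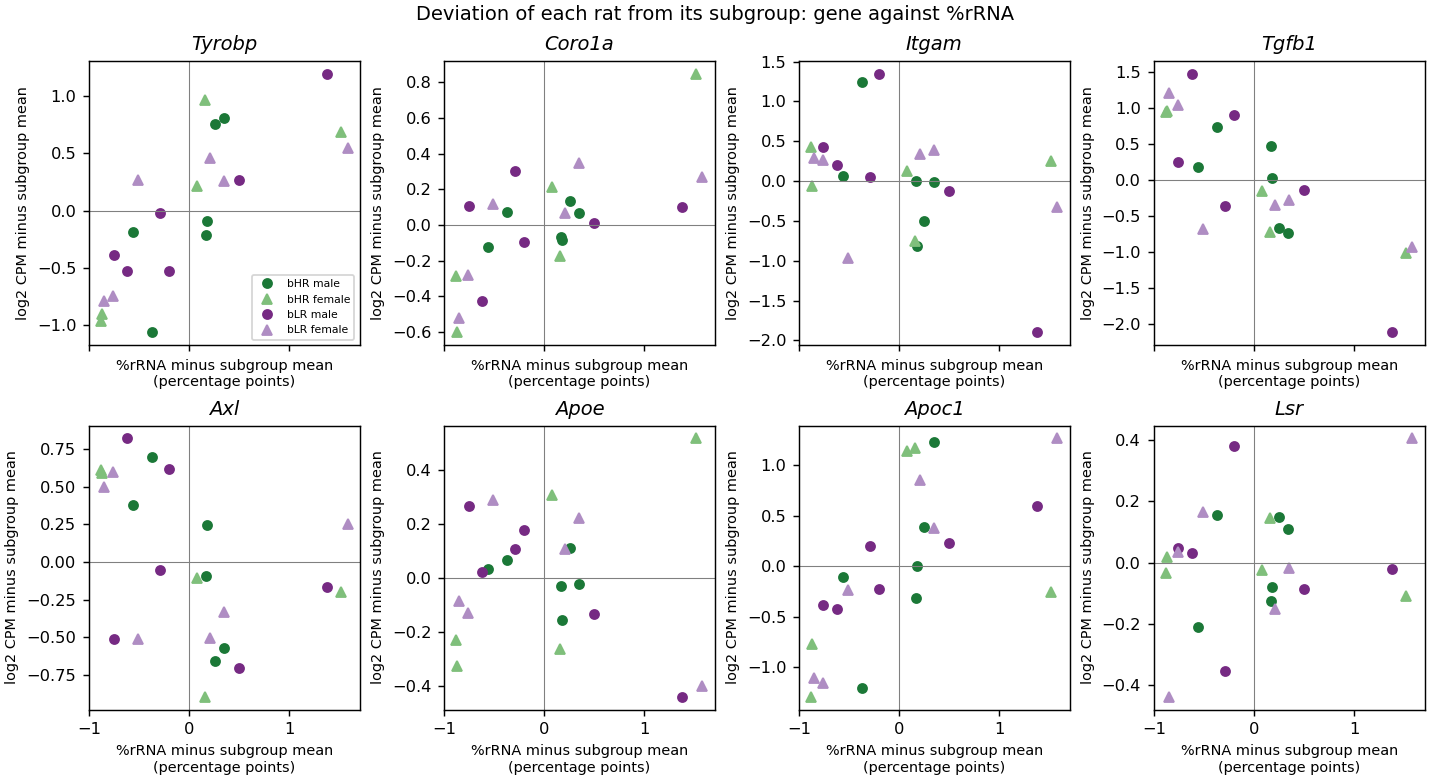
Deviation of each of 23 rats from its subgroup in log2 CPM (vertical) against its deviation in %rRNA in percentage points (horizontal), 1 panel per member, with colors and symbols for the 4 subgroups. Tyrobp (r = 0.78), Coro1a (0.69) and Apoc1 (0.64) rise with %rRNA under TMM scaling, Tgfb1 (-0.79) falls, and Apoe (-0.066) and Lsr (0.23) show no called relation; with library size alone Coro1a is flat (-0.062).

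After line, sex, %rRNA and %intergenic were all fitted, 6 of the 28 pairs passed the FDR, 4 positive (14.3%) and 2 negative (7.14%). Over all pairs of a member with a tested gene the same fit gave 10.7% positive and 6.91% negative, so the members were again called with each other about as often as with genes at large. Tyrobp still went against Tgfb1 (r = -0.66, FDR = 0.0108) and Axl (r = -0.63, FDR = 0.0623) and with Apoc1 (r = 0.70, FDR = 0.0406). Apoe with Coro1a (r = 0.76, FDR = 0.00631) and with Itgam (r = 0.71, FDR = 0.0223) were closer than before, and Itgam with Coro1a (r = 0.51, FDR = 0.0811) appeared. Tyrobp with Coro1a changed sign (r = -0.14). The permutation p behind these FDRs came from 10000 permutations of the residuals. These adjusted values were not computed again without the rats at the ends, nor within each line or sex.

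**Figure D5:**
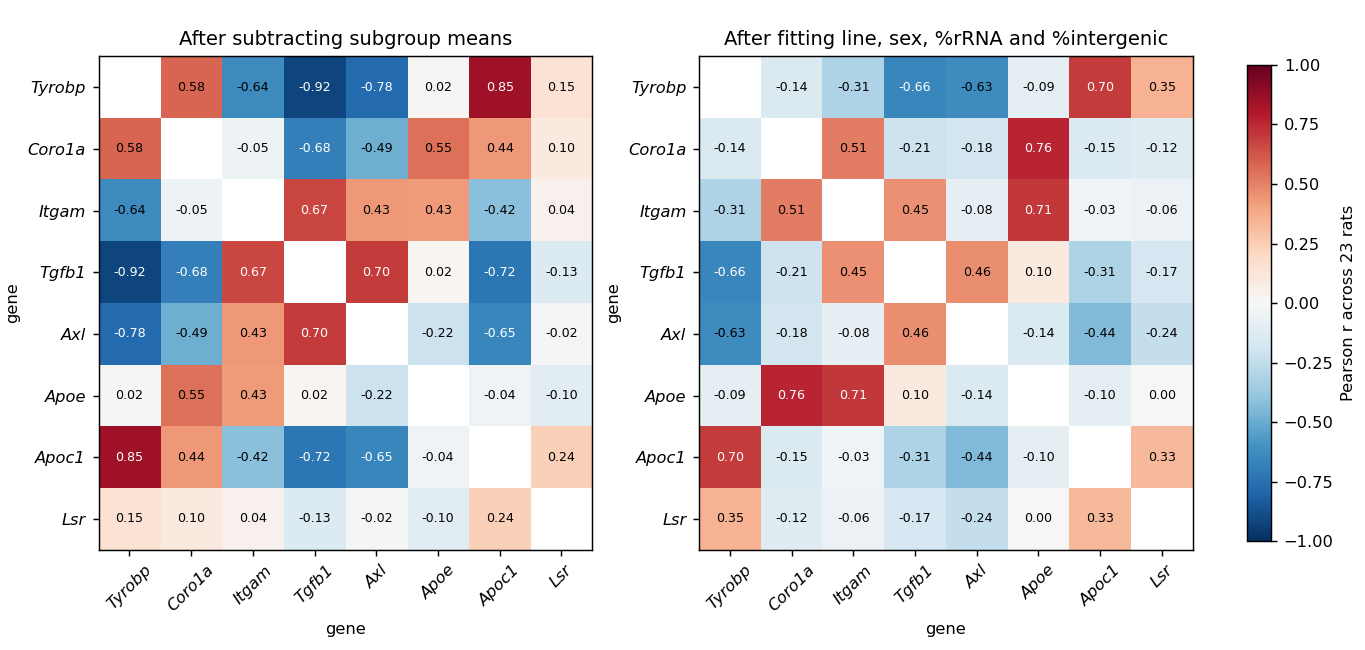
Pearson's r across 23 rats for every pair of members, from blue (-1) through white (0) to red (1), after subtracting subgroup means (left) and after fitting line, sex, %rRNA and %intergenic (right). On the left Tyrobp, Coro1a and Apoc1 oppose Tgfb1 and Axl (Coro1a only under TMM scaling), and on the right the strongest value is that of Coro1a with Apoe (0.76).

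Genes of other cell types also correlated with the members. Tyrobp was called positively with 34.5% and negatively with 41.6% of all other genes, so the counts for these short lists are given as a description, and nothing particular to a cell type is read from them. Hemoglobin and its synthesis genes, which in brain tissue come with blood, summed to 49.6 to 4550 CPM in bHRs and 117 to 3893 CPM in bLRs. By sex the sums were 686 to 4550 CPM in males and 49.6 to 966 CPM in females. Each of the 4 tested genes was called lower in females by edgeR, beside 0.354% of all genes called for sex. Their Log2FCs (female vs. male) ran from -2.20 for Hba-a1 (FDR = 0.0004) to -2.02 for Hbb (FDR = 0.0027) and Alas2 (FDR = 0.0004). Sex, age and day of dissection cannot be told apart here. All 4 tested erythroid genes of 5 listed correlated positively with Tyrobp and negatively with Tgfb1 and Axl, with Hbb and Tyrobp at r = 0.87 (rho = 0.86, permutation p = 1e-05, FDR = 0.000106). After line, sex and both metrics were fitted, the r of Tyrobp was 0.53 with Hbb (rho = 0.49, permutation p = 0.104 and 0.066), 0.17 with Hba-a1, 0.33 with Hba-a2 and 0.096 with Alas2, and none of the 4 had an unadjusted p under 0.05. Neuronal Rbfox3 and Slc17a7 correlated with Tyrobp at r = -0.94 and -0.93, astrocytic Aqp4 at -0.94 and oligodendrocytic Mag at -0.90 (rho from -0.94 to -0.92, permutation p = 1e-05 for each). Of the 3 astrocyte genes 2 were called negatively with Tyrobp, and Slc1a3 was not called (r = 0.21, rho = 0.22, permutation p = 0.385). Of the 5 microglial markers, 1 correlated positively with Tyrobp, Cd33 (r = 0.72, rho = 0.78, permutation p = 0.00013, FDR = 0.000757), and 3 negatively, Cd37 (r = -0.91, rho = -0.93), Blnk (r = -0.70, rho = -0.67) and Olfml3 (r = -0.62, rho = -0.58), with permutation p = 1e-05, 0.00054 and 0.00279. After line, sex and both metrics were fitted the r of Tyrobp was -0.66 with Rbfox3, -0.65 with Slc17a7, -0.70 with Aqp4, -0.61 with Mag, -0.70 with Cd37 and 0.50 with Cd33, with unadjusted permutation p from 0.0015 to 0.0171. It was -0.088 with Blnk (permutation p = 0.674) and -0.24 with Olfml3 (permutation p = 0.210). Of the other astrocyte genes, Gfap was at -0.48 (rho = -0.19, permutation p = 0.0859 and 0.411) and Slc1a3 at -0.22 (permutation p = 0.453). Gfap had r = -0.89 with Tyrobp before the fit. Folr1, the 1 tested choroid plexus gene of 8 listed, ran from 2.39 to 55.2 CPM over the rats. It was called positively with Tyrobp (r = 0.48, rho = 0.44, permutation p = 0.045, FDR = 0.086) and Apoc1 (r = 0.45, rho = 0.38, permutation p = 0.0473, FDR = 0.0897) and negatively with Axl (r = -0.49, rho = -0.40, permutation p = 0.0335, FDR = 0.067). These relations with listed genes were not computed again without the rats at the ends. The part of blood, of cell type content and of RNA quality in these relations was not tested.

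The share of all genes that each member ran with differed widely. Next to the shares of Tyrobp, Tgfb1 was called positively with 40.7% and negatively with 33.9% of the other 13837 genes. For Axl they were 38.3% and 33.8%, for Coro1a 32.6% and 34.9%, for Apoc1 32.6% and 37.0%, and for Itgam 27.4% and 23.0%. For Apoe these shares were 8.73% and 7.06%, and for Lsr 2.7% and 0.954%.

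The genes most like each member were sought among the 1978 tested genes with a symbol, most of them on chromosome 1. For Tyrobp these included the ribosomal protein gene Rps16 and Bola2 (both r = 0.98 over 23 rats), and for Apoc1 Gmfg (0.91) and Tmem126a (0.87), beside 1 gene model without a proper name in each case. For Tgfb1 they were Tbc1d17 (0.97), Eps8l2 (0.96) and Dpf2 (0.95). For Axl they were Gys1 (0.93), Scd2 (0.92) and Pak4 (0.91). For Coro1a they were Stn1 (0.95), Atad1 (0.93) and Oat (0.92), and for Itgam Paf1 (0.82), Agpat4 (0.81) and Lig1 (0.77). For Apoe they were Uba2 (0.91), Fkbp4 (0.90) and Ruvbl2 (0.86). For Lsr the closest with a symbol were Ccl19 (0.66, rho = 0.53), Wtip (0.62, rho = 0.51) and Mettl9 (0.61, rho = 0.40), and after line, sex and both RNA metrics were fitted Lsr with Ccl19 was at 0.84. Genes without a symbol often ran closer, with 13 of them ahead of Ccl19 for Lsr and 62 ahead of Tmem126a for Apoc1.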

How the data were processed

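The authors made poly-A-selected libraries, aligned the reads to Rnor6 with STAR 2.7.3a, kept unique hits and counted them by strand per Ensembl 103 gene with Subread 2.0.0. The deposited table holds these raw counts without normalization. Keeping unique hits leaves out reads shared by near-identical gene copies. Each column was matched to its rat by title, and line, sex, family, %rRNA and %intergenic come from the labels.

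Genes were kept where 6 of 23 rats or more reached 1 CPM and were tested with edgeR 4.0.16 in R 4.3.3 (TMM, quasi-likelihood test, FDR under 0.10 over all tested genes). The model was checked on simulated counts with no effect of sex, %rRNA or %intergenic and with lineage changes larger than those of the members. That check therefore does not cover the variation with the RNA metrics or differences as small as those seen here. Alternatives used limma 3.58.1, DESeq2 1.42.0, sva 3.50.0 and other scalings, filters, covariates and rats. Correlations used log2 CPM (prior count 2) and 100000 permutations within subgroups (10000 for alternatives, 5000 with 1 rat left out) in Python 3.11.15. Their FDRs were taken over all tested genes rather than over the members alone, as first planned, a change made after the data were seen. The members, the lists and the rule for named genes (members, tested list genes, called neighbors and the 3 closest genes) were chosen with earlier results of these data known. The p-values measure the spread between rats of a subgroup. Floors cover counting error only. Results of 1 listed gene are not reported here.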

Additional observations from a re-analysis of the deposited data

Results flagged for a closer look

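In the bLR males, 1 rat stood apart for Tyrobp at 82.7 CPM, with the next at 43.5 CPM, a gap of 0.679 of the range of the 6 rats. The same rat had the highest %rRNA of all 23, 3.98%. In the bHR males, 1 rat stood apart for Itgam at 5.18 CPM, with the next at 2.24 CPM, a gap of 0.735 of the range, and it had the highest %intergenic, 13.5%. These were 2 of the 32 combinations of member and subgroup examined, and chance flags about 5% of such groups.

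The bHR female left out for its RIN of 6.3 stood above all 23 analysed rats for 2 members. Its Axl was 18.9 CPM, where the highest other rat had 15.5 CPM, and its Lsr was 13.9 CPM, where the highest other rat had 12.4 CPM.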

How the results depend on the processing

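The number of members called for lineage, sex or their interaction was 0 under every alternative run, including a threshold of 0.05, limma-voom, DESeq2 (the tools were not switched for the interaction) and each rat left out. Without both technical covariates the lineage Log2FC of Tgfb1 was 0.0078, and with %rRNA as the only one it was 0.12, with Tyrobp at -0.065. With 2 surrogate variables Apoe was 0.0996. In males alone Tyrobp was -0.11, Tgfb1 0.063 and Apoe 0.017. In females alone Tyrobp was -0.054, Coro1a -0.18, Tgfb1 0.19 and Apoc1 -0.042. The sex Log2FC of Coro1a without technical covariates was -0.031. These are the values whose sign differed from the reported one, none was called in either fit, and the cause was not tested. With 1 rat left out, the lineage Log2FC ran from -0.36 to 0.025 for Tgfb1, from -0.062 to 0.061 for Apoe, from 0.042 (without bHR male 1) to 0.28 for Axl, from 0.034 (without bLR male 5) to 0.21 (without bHR male 1) for Coro1a, from 0.084 (without bHR female 4) to 0.33 (without bHR female 6) for Apoc1, from 0.074 (without bHR female 4) to 0.28 (without bHR female 6) for Tyrobp and from 0.069 (without bLR female 4) to 0.17 for Lsr, none of them called. The sex Log2FC ran from -0.14 to 0.066 for Tyrobp, from -0.078 to 0.12 for Coro1a, from -0.0039 to 0.28 for Tgfb1, from -0.29 to 0.0098 for Apoc1, from 0.12 to 0.35 for Axl, from 0.11 to 0.25 for Lsr, from 0.016 to 0.31 for Itgam and from -0.19 to -0.0045 for Apoe. With all 24 rats the lineage Log2FC was 0.13 for Axl, 0.33 for Apoc1, -0.067 for Apoe and 0.073 for Lsr, none called. Family as a replicate block (random effect, correlation 0.0085) left lineage Log2FCs between -0.052 and 0.50 and called 0 members, and as a fixed block it called 0 members for sex.

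The called pairs of members numbered 14 in the main analysis, 6 after fitting line, sex and both RNA metrics, and 23 (13 positive, 10 negative) with library size alone. In those fits Tyrobp with Coro1a was -0.14 and -0.47. With library size alone Coro1a with Tgfb1 was 0.18 and Coro1a with Axl 0.21, and Coro1a with %rRNA was -0.062. The 9 called relations of a member with an RNA metric numbered 5 to 10 with 1 rat left out, the 5 without bHR male 1, whose %intergenic was the highest. They numbered 12 with library size alone (6 positive, 6 negative, against 6 and 3) and 7 with all 24 rats (6 and 1). Tgfb1 and Itgam had the lowest counts of the 8 members, down to 3 and 10 in a rat, which limits their values.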

Other observations

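After line, sex, %rRNA and %intergenic were fitted, Apoe ran with genes noticed only after the values were seen. These were Mfge8 (r = 0.75, rho = 0.76, permutation p = 0.0005 and 0.0004) and Slc1a3, the glutamate transporter of astrocytes (r = 0.68, rho = 0.65, permutation p = 0.001 and 0.003), each over 23 rats. Blnk went the other way with Apoe (r = -0.67, rho = -0.65, permutation p = 0.0003 and 0.0006). The other astrocyte genes differed, with Gfap at r = 0.60 (rho = 0.48, permutation p = 0.0139 and 0.0371) and Aqp4 at -0.016 (rho = -0.23, permutation p = 0.971 and 0.363). Coro1a ran with Mfge8 and Slc1a3 as well, at r = 0.57 (rho = 0.60, permutation p = 0.0047 and 0.0043) for Mfge8 and 0.69 (rho = 0.71, permutation p = 0.0038 and 0.0022) for Slc1a3. Before the metrics were fitted, Apoe with Mfge8 had r = 0.43 and Apoe with Slc1a3 r = 0.28. Coro1a with Mfge8 then had the opposite sign and was not called (r = -0.27, rho = -0.36), and Coro1a with Slc1a3 had r = 0.62. These p-values are unadjusted, come from 10000 permutations, and 31 list entries were compared with each member.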
